A study of Mus musculus with 12 samples.

Results

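The comparison described here set 2 injuries of alveolar epithelial cells against each other: MLE-12 cells given lipopolysaccharide (LPS, the outer membrane endotoxin of Gram-negative bacteria) and MLE-12 cells kept in hyperoxia, both without M2 macrophage-derived exosomes (M2-Exo). Its members were chosen by the sample labels, as the 3 LPS libraries and the 3 hyperoxia (Hyp) libraries among the 12 RNA-seq libraries of the series, and all genes of the count table were described. Cells of the LPS group received 100 ng/mL LPS in 21% oxygen, and cells of the Hyp group were kept in 85% oxygen without LPS, in both cases for 24 h. The remaining 6 libraries held the same 2 injuries with 10 µg/mL M2-Exo added, in 3 libraries each, and share no sample with the first 6. MLE-12 is a single mouse alveolar type II line immortalised with the SV40 large T antigen, a viral protein that binds p53 and the retinoblastoma protein, so that all groups shared this background. No untreated culture is analysed here. Each difference is therefore LPS relative to hyperoxia, and a gene lowered by LPS cannot be told apart from a gene raised by hyperoxia. LPS and oxygen also changed together between the groups, and the labels name no culture or sequencing batch, so these cannot be told apart either. The labels do not say whether the 3 libraries of a group came from separate cultures, so the p-values measure the spread between these libraries, which may be technical.

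LPS is sensed by the TLR4 receptor with its partners CD14 and MD-2, which signal through NF-kB to cytokines and chemokines and through IRF3 to interferon and the interferon-stimulated genes. High oxygen raises reactive oxygen species, which engage the NRF2 antioxidant program, the DNA damage and p53 response and the integrated stress response, in which ATF4 induces genes of amino acid supply and redox balance. Alveolar type II cells make surfactant, a lipid-rich film, and sterol and fatty acid synthesis under the SREBP factors is a marked feature of this cell type.

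Depth differed between the groups. The LPS libraries held 18700207 to 19185116 counts and the Hyp libraries 22035335 to 24074616, so the ranges did not overlap, and 16846 to 16865 genes had a count in an LPS library against 17687 to 17888 in a Hyp library. Libraries of one group correlated at r of at least 0.992 on the log2 CPM scale (CPM, counts scaled to library size) across genes, and libraries of different groups at 0.919 to 0.922. No pair of replicates agreed within sampling noise. When the Hyp counts were thinned to the LPS total, 10356 genes were called in place of 10465. A count of 0 in a library allows a level of up to 3 counts, which is 0.156 to 0.160 CPM in LPS and 0.125 to 0.136 CPM in Hyp, for counting error only.

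Most measured genes differed between LPS and hyperoxia, and most of the differences were small. Of 13805 genes that passed the filter on low counts, 10465 were called at an adjusted p under 0.05 (75.8%, edgeR quasi-likelihood test with Benjamini-Hochberg adjustment), of which 5216 were higher in LPS (37.8% of the genes tested) and 5249 lower (38%). The median absolute log2 fold change was 0.51, and 49.0% of the genes tested lay under 0.5. At least 2-fold and called were 3310 genes (24%), 1897 higher (13.7%) and 1413 lower (10.2%). Against a 1.5-fold change as the null, 4666 genes were called (33.8%), 2530 higher (18.3%) and 2136 lower (15.5%). The thresholds that the study used for its own comparisons (unadjusted p under 0.05 and a change of 2 or more either way on the log2 scale) left 1060 genes (7.68%), 647 higher (4.69%) and 413 lower (2.99%), a split that the filter on low counts moved, to 917 higher and 919 lower without a filter and 397 higher and 103 lower with at least 10 counts in every library. The 3 LPS and 3 Hyp values did not overlap in 10862 genes (78.7%). Scaling moved the balance of the calls: with library size alone in place of TMM factors the median log2 fold change of all genes went from -0.01 to -0.10, and the share of calls that were higher in LPS went from 49.8% to 43.9%. Differences of about 0.1 on the log2 scale are therefore within the choice of scaling.

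**Figure D1:**
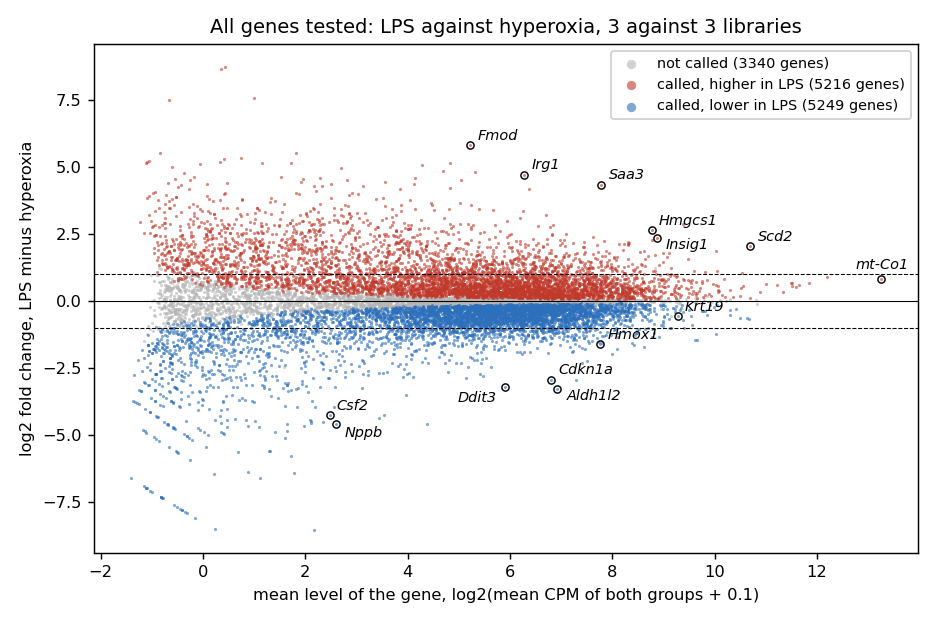
Log2 fold change (LPS minus hyperoxia) of each of the 13805 genes tested against its mean level on a log2 scale, with genes called higher in LPS in red, called lower in blue and not called in grey, and dashed lines at a 2-fold change. Called genes fill both directions nearly equally (5216 and 5249), and the genes past the dashed lines are the smaller part, 3310 of the 10465 called.

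The gene lists that follow are each read against these shares: a list in which about 37.8% of the tested genes were higher and 38% lower in LPS was like the whole table. Cell type markers and Y-linked genes apart, over 75% of the genes tested were higher in LPS in the mitochondrially encoded, interferon-stimulated, sterol, MHC class I, glycolysis and ribosomal protein lists, and over 75% were lower in the integrated stress response, histone and p53 lists.

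**Figure D2:**
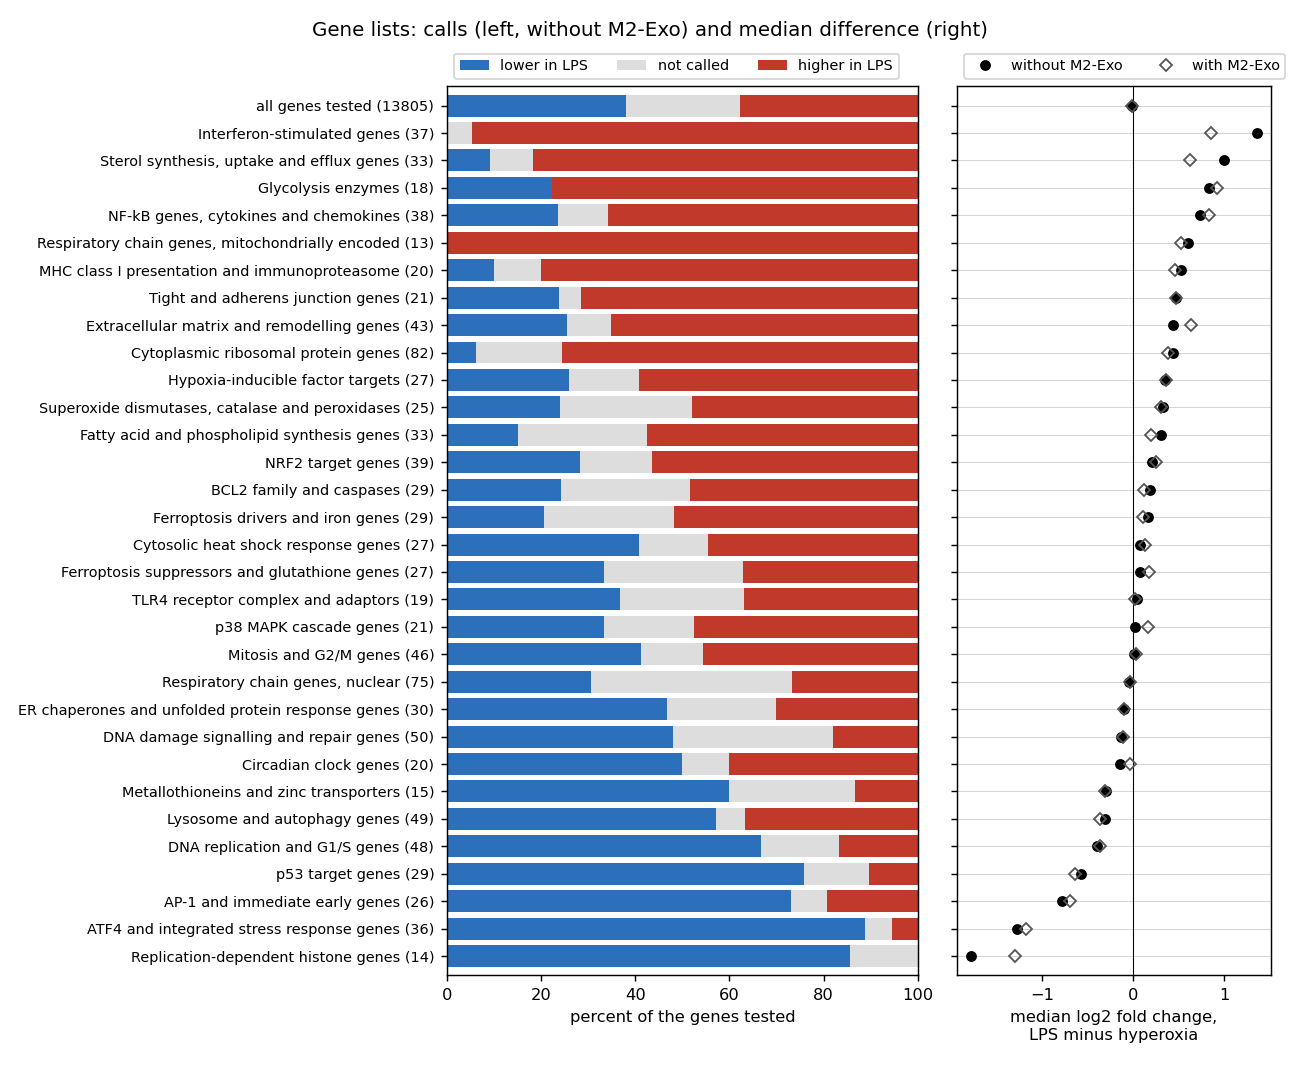
For each gene list other than the cell type markers, the Y-linked genes and the genes the study measured (number of genes tested in brackets), the percent of genes called higher in LPS (red), called lower (blue) and not called (grey) at left, and at right the median log2 fold change of the list in the libraries without M2-Exo (filled circles) and with M2-Exo (open diamonds). Of the lists plotted, the interferon-stimulated genes have the highest median without M2-Exo (1.36) and the histone genes the lowest (-1.78), and all genes tested lie at -0.01.

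The identity of the cells was checked against marker genes. Nkx2-1, the transcription factor that specifies lung epithelium, was present in all libraries at 171, 172 and 175 CPM in the LPS libraries and 41.8, 37.9 and 38.9 CPM in the Hyp libraries. The groups did not overlap, and the level was 4.36-fold higher in LPS (log2 fold change 2.13 ± 0.0449, adjusted p = 2.06e-08). Sftpc, the surfactant protein C gene that defines alveolar type II cells, was low at 21.4, 23.3 and 22.3 CPM in the LPS libraries and 11.1, 10.6 and 12.1 CPM in the Hyp libraries, and again higher in LPS in every library (log2 fold change 0.99 ± 0.0764, adjusted p = 8.18e-06). Abca3, the lamellar body lipid transporter, was at 199 ± 5.12 CPM in LPS and 151 ± 2.13 CPM in Hyp (SD, n = 3). Sftpa1 and Sftpd were at or near 0 in all 6 libraries and Lamp3 was under 1 CPM, so 3 of 11 alveolar type II markers were not testable, and the airway secretory markers Scgb1a1, Scgb3a1, Scgb3a2 and Cyp2f2 were at or near 0 too. Of the 8 type II markers tested, 6 were higher in LPS and 2 lower, Sftpb and Etv5. Keratins split: Krt19 was at 501 ± 22.2 CPM in LPS and 742 ± 5.36 CPM in Hyp, lower in LPS (log2 fold change -0.57 ± 0.0371, adjusted p = 3.17e-06), whereas Krt7 was higher (log2 fold change 2.66 ± 0.219, adjusted p = 1.14e-05). Cdh1, which encodes E-cadherin, was 4.77-fold higher in LPS, and Epcam and Krt18 were under 1 CPM throughout. Among the type I markers, Rtkn2, Hopx, Pdpn, Ager and Emp2 were higher in LPS, Clic5 was lower, and Aqp5, Cav1 and Akap5 did not pass the test. Cav1, the caveolin gene, was read at 83.1, 61.2 and 63.4 CPM in the LPS libraries and 67.6, 17.3 and 65.4 CPM in the Hyp libraries, where the second Hyp library alone was far below the others. All Hyp + M2-Exo libraries were near that low level, at 19.2, 16.1 and 13.1 CPM. The LPS + M2-Exo libraries held 60.6, 58.4 and 53.9 CPM, and Cav1 was called higher there (log2 fold change 1.83).

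Genes of other cell types were read in all 6 libraries and differed between the groups. Of 15 macrophage and myeloid markers 12 were tested, 10 were higher in LPS and 1, Itgax, was lower, and together they reached 448 to 498 CPM with LPS against 103 to 109 CPM in hyperoxia. Ptprc (the pan-leukocyte phosphatase CD45) was at 50.5, 53.7 and 46.1 CPM in the LPS libraries and 10.1, 8.1 and 8.21 CPM in the Hyp libraries, and Adgre1 (the macrophage receptor F4/80) at 78.7, 81.7 and 72.2 CPM in the LPS libraries and 11.3, 12.2 and 14.9 CPM in the Hyp libraries. Every LPS library lay above every Hyp library for both, by 5.69-fold and 6.04-fold. Csf1r, Spi1 and Fcer1g, the growth factor receptor, the lineage transcription factor and the Fc receptor signalling chain of myeloid cells, were also higher in LPS (5.54-fold, 5.25-fold and 6.53-fold). Arg1 and Chil3, markers of alternatively activated macrophages, were at or near 0, and C1qa was under 1 CPM. The same list in the libraries with M2-Exo summed to 355 to 398 CPM in LPS + M2-Exo and 79.2 to 119 CPM in Hyp + M2-Exo. Y-linked genes, a list added after the data were seen, behaved alike: Ddx3y was at 6.09, 6.79 and 6.25 CPM in the LPS libraries and 0.952, 1.32 and 1.05 CPM in the Hyp libraries, and the 4 genes tested were all higher in LPS, with a summed level of 15.8 to 18.3 CPM against 3.26 to 3.61 CPM. The labels do not say whether the LPS and Hyp cultures came from the same stock of MLE-12 cells, so a difference between stocks and a difference between the injuries cannot be told apart in any value given here. In bulk RNA, fewer cells of a type and less RNA per cell cannot be told apart. What part these genes' source has in the results on cytokines, interferon-stimulated genes and other leukocyte genes below was not tested.

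**Figure D3:**
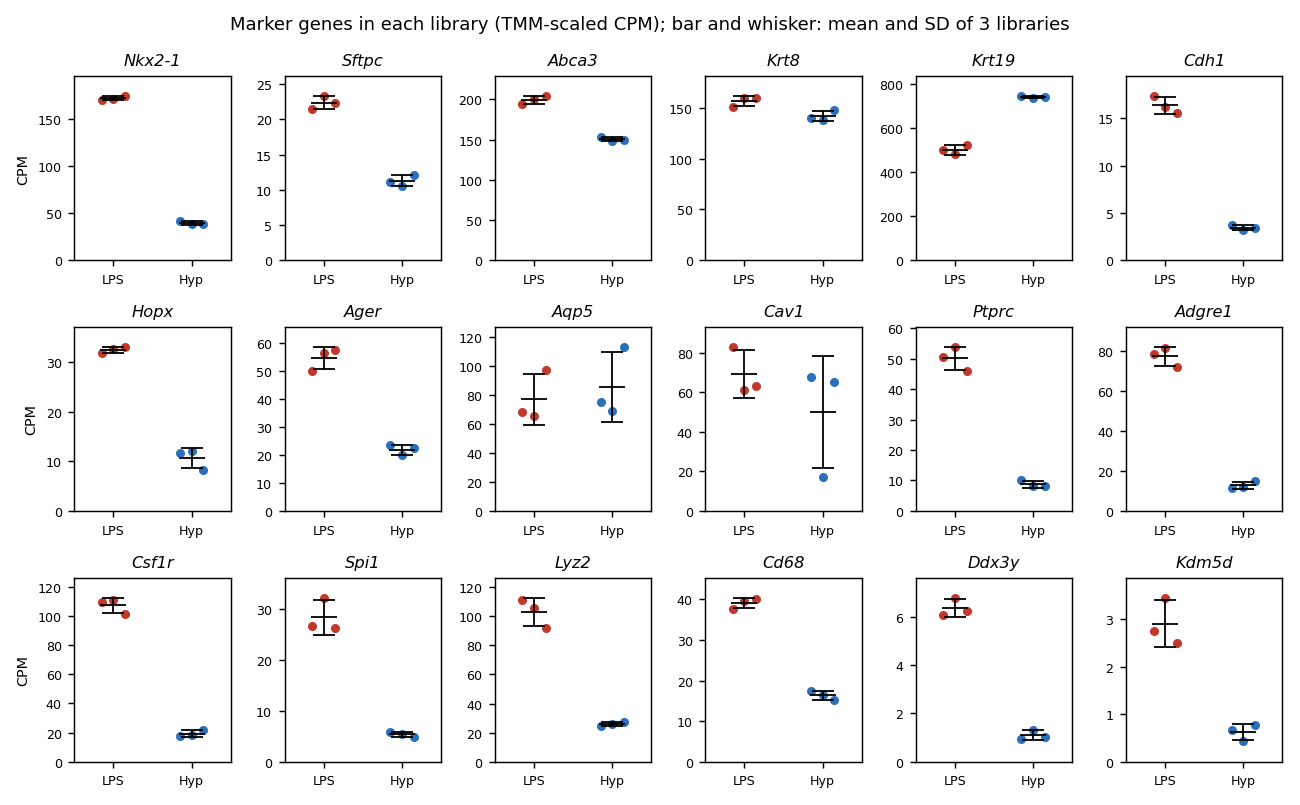
Level (TMM-scaled CPM, linear axis from 0) of 18 marker genes in each of the 3 LPS (red) and 3 Hyp (blue) libraries, with the mean and SD of 3 libraries as bar and whisker. Epithelial markers are read in both groups, and the myeloid markers Ptprc, Adgre1, Csf1r, Spi1, Lyz2 and Cd68 and the Y-linked Ddx3y and Kdm5d are read in both and higher in every LPS library.

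The question whether LPS cells carried more of the TLR4 output than hyperoxic cells was read from receptor, mediator and target genes. Receptor genes showed no common direction: of 19 genes for the TLR4 complex and its adaptors 7 were higher and 7 lower in LPS, with a median log2 fold change of 0.04. Tlr4 itself was low, at 3.4, 3.5 and 3.42 CPM in the LPS libraries and 4.39, 0.616 and 3.5 CPM in the Hyp libraries, with the second Hyp library far below the rest and overlapping groups (log2 fold change 0.27 ± 0.51, adjusted p = 0.65). Ly96, which encodes MD-2, was lower in LPS (log2 fold change -0.97 ± 0.228, adjusted p = 0.00488). In contrast Lbp, the LPS-binding protein of the acute phase, was at 332, 329 and 343 CPM in the LPS libraries and 85.4, 74.6 and 76.7 CPM in the Hyp libraries. Its groups were far apart, 4.24-fold higher in LPS (log2 fold change 2.08 ± 0.0531, adjusted p = 3.73e-08). Tlr2 and the co-receptor Cd14 were higher by 3.26-fold and 2.07-fold, and Chuk, the IKK-alpha kinase gene, was 2.09-fold lower.

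Of 38 NF-kB, cytokine and chemokine genes tested, 25 were higher in LPS and 9 lower, with a median log2 fold change of 0.73 against -0.01 for all genes. Saa3, an acute phase apolipoprotein, was at 447, 405 and 411 CPM in the LPS libraries and 20.4, 19.1 and 22.9 CPM in the Hyp libraries, the highest of which lay below every LPS value (20.2-fold, log2 fold change 4.34 ± 0.0736, adjusted p = 1.38e-08). Tnf, the tumour necrosis factor gene, was at 13, 14.2 and 11.7 CPM in the LPS libraries and 1.49, 1.76 and 1.25 CPM in the Hyp libraries (8.65-fold higher in LPS, log2 fold change 3.11 ± 0.146, adjusted p = 5.12e-07). Cxcl2, a neutrophil chemokine, was read at 7.3, 6.79 and 6.08 CPM in LPS and was at or near 0 in Hyp (0, 0.088 and 0.322 CPM), and Cxcl15, the lung epithelial chemokine lungkine, differed by 15.9-fold (log2 fold change 3.99 ± 0.201, adjusted p = 7.46e-07). Il1b was 5.43-fold higher in LPS at low levels. The cytokine list was not uniform. Csf2, the gene of granulocyte-macrophage colony-stimulating factor, was at 0.603, 0.377 and 0.652 CPM in LPS and 10.7, 10.1 and 10.4 CPM in Hyp, 18.9-fold lower in LPS with no overlap. Il6 was at 8.45, 6.15 and 7.82 CPM in LPS and 13.7, 14.9 and 16.2 CPM in Hyp, lower by 2.00-fold (log2 fold change -0.998 ± 0.126, adjusted p = 0.00015). Ptgs2, the inducible prostaglandin synthase COX-2, was at 36, 34 and 38.8 CPM in the LPS libraries and 278, 279.8 and 276 CPM in the Hyp libraries, lower by 7.66-fold. The summed level of the myeloid markers, 448 to 498 CPM against 103 to 109 CPM, moved with the genes higher in LPS, and their part in these cytokine results was not tested.

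Interferon-stimulated genes were higher in LPS nearly throughout: 35 of 37 tested were higher, none was called lower, and the median log2 fold change was 1.36. Ifi44 was at 13.1, 5.18 and 5.65 CPM in the LPS libraries and 0.828, 0.572 and 0.724 CPM in the Hyp libraries, Rtp4, a receptor chaperone that interferon induces, at 36.3, 24.7 and 27 CPM in the LPS libraries and 4.31, 4.01 and 4.1 CPM in the Hyp libraries, and Oasl2, of the oligoadenylate synthetase family, at 67.9, 37.9 and 43.1 CPM in the LPS libraries and 9.19, 8.36 and 5.03 CPM in the Hyp libraries. In all 3 the first LPS library was above the second and the third, and all LPS libraries were above all Hyp libraries (11.1-fold, 7.08-fold and 6.6-fold higher). Ifit1, which binds foreign RNA lacking cap methylation, was at 15.3, 8.03 and 8.85 CPM in the LPS libraries and 2.15, 2.29 and 2.01 CPM in the Hyp libraries (log2 fold change 2.32 ± 0.269, adjusted p = 9.03e-05), and Gbp3, a guanylate-binding protein, differed by 4.35-fold (log2 fold change 2.12 ± 0.182, adjusted p = 1.46e-05). The exceptions were Isg20 and Rsad2. Rsad2, the antiviral enzyme viperin, was at 4.11, 2.26 and 2.99 CPM in the LPS libraries and 4.06, 4.27 and 3.74 CPM in the Hyp libraries (log2 fold change -0.37 ± 0.207, adjusted p = 0.141), and without the first LPS library it was lower in LPS by its own call (log2 fold change -0.61). Without that library 35 genes of the list were still called higher, with a median of 1.15. The summed level of the list was 1739 to 2125 CPM in LPS and 935 to 949 CPM in Hyp, and in the libraries with M2-Exo it was 1575 to 1611 CPM and 932 to 974 CPM. MHC class I and immunoproteasome genes, which interferons also raise, were higher in LPS in 16 of 20 with 2 lower, Nlrc5 and Calr (median 0.52), and led by H2-T23 (6.54-fold), Psme1 (2.48-fold), Tapbp (2.27-fold) and Psmb8 (2.14-fold).

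Promoters of the interferon-stimulated genes were read for the interferon-stimulated response element. The share of listed genes with a match describes the list, whether or not its genes moved in these data. A 10-letter form of the element was searched on both strands in the 250 bases before the annotated start (RefSeq, GRCm38.p6), with overlapping matches kept. A match was found in 11 of 27 listed genes with a promoter in the table (40.7%), against 3.14% of 9986 tested genes, 3.76% of those higher in LPS and 2.51% of those lower. A match is a description of letters and not of binding. The promoters of Ifit1 (plus strand, chr19:34640639-34640888) and Gbp3 (plus strand, chr3:142559794-142560043) are shown because both hold 2 matches, given in capitals:
Ifit1: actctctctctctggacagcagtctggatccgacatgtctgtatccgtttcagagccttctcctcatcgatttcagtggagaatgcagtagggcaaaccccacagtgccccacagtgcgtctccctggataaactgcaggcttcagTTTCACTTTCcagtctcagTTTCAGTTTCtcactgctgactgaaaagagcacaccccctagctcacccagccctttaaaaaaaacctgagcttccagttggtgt
Gbp3: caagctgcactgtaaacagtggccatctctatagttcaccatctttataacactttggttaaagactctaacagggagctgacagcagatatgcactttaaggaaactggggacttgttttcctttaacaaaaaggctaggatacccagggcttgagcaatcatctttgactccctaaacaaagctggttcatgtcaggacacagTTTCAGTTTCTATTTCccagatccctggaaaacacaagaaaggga

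Of the gene lists, the integrated stress response had the largest share called lower in LPS, that is higher in hyperoxia (88.9%). Of 36 ATF4 and integrated stress response genes tested, 32 were lower in LPS and 2 higher (Ddit4 and Slc38a2), 24 of them lower by at least 2-fold, with a median log2 fold change of -1.28. Aldh1l2, the mitochondrial folate enzyme, was at 22.5, 21.1 and 25.1 CPM in the LPS libraries and 224, 225 and 211 CPM in the Hyp libraries. No values overlapped, and the level was 9.61-fold lower in LPS (log2 fold change -3.26 ± 0.0652, adjusted p = 1.92e-08). Ddit3, which encodes the death-linked factor CHOP, was at 12.5, 11.3 and 11.2 CPM in the LPS libraries and 106, 107 and 109 CPM in the Hyp libraries (9.2-fold lower, log2 fold change -3.20 ± 0.0571, adjusted p = 1.63e-08); its exons overlap those of Mars, and the library kit did not mark strand. Atf3 was at 63.6, 62.7 and 63.6 CPM in the LPS libraries and 290.1, 302 and 306 CPM in the Hyp libraries and Atf5 at 15.2, 16.2 and 14.4 CPM in the LPS libraries and 84.1, 83 and 82.9 CPM in the Hyp libraries, again with wide gaps between groups (4.72-fold and 5.45-fold lower). Atf4, whose protein is mainly set by translation, differed less, at 251 ± 11.2 CPM in LPS and 371 ± 2.57 CPM in Hyp (SD, n = 3, log2 fold change -0.56 ± 0.0367, adjusted p = 3.17e-06). The pseudokinase gene Trib3 was 6.84-fold lower and Chac1, which degrades glutathione, 4.83-fold lower. Summed over the list, the level was 3709 to 3886 CPM in LPS and 8207 to 8312 CPM in Hyp, and 3928 to 4049 CPM and 8112 to 8306 CPM in the libraries with M2-Exo.

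The composite C/EBP-ATF response element through which ATF4 acts was searched in an 8-letter form on both strands of the same window. It was found in 9 of 30 listed genes (30%), against 2.36% of 9986 tested genes, 2.58% of those higher in LPS and 2.51% of those lower. Chac1 (plus strand, chr2:119350992-119351241) and Atf3 (minus strand, chr1:191183334-191183583, printed 5′ to 3′ of the gene) are shown as members with 1 match each, in capitals and on the reverse strand in both:
Chac1: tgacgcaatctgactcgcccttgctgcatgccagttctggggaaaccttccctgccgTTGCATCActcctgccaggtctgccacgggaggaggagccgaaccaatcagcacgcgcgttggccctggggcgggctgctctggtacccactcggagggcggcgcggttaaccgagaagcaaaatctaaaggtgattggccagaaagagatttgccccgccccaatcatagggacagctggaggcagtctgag
Atf3: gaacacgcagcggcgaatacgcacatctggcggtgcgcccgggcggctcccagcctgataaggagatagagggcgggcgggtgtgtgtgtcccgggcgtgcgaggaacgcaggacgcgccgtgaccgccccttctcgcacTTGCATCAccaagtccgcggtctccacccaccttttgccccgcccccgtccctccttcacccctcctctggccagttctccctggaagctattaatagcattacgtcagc

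Other stress programs were less uniform. Of 30 endoplasmic reticulum chaperone and unfolded protein response genes, 9 were higher and 14 lower in LPS (median -0.10), and the genes of the stress sensors Atf6 and Ern1 were lower in LPS by 2.34-fold and 2.11-fold. The 27 cytosolic heat shock genes split into 12 higher and 11 lower. Hspa8, the constitutive HSP70, was at 1565, 1681 and 1649 CPM in the LPS libraries and 531, 399 and 406 CPM in the Hyp libraries, 3.66-fold higher in LPS, although 38.6% of the 50-base words in its transcripts also occur in transcripts of other genes, so its counts are uncertain. Among AP-1 and immediate early genes 19 of 26 were lower in LPS and 5 higher (median -0.78). Fosl1 and Fosb, which encode subunits of AP-1, were lower in LPS by 4.84-fold and 4.68-fold, and the ERK phosphatase gene Dusp5 was lower by 6.15-fold. Dusp1, which encodes a p38 and JNK phosphatase, went the other way, at 75.5, 81.4 and 77.3 CPM in LPS and 29.3, 27.7 and 33 CPM in Hyp.

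p53 targets were mostly lower in LPS. Of 29 tested, 22 were lower and 3 higher (Fas, Sesn1 and Ddb2), with a median of -0.57. Cdkn1a, the cell cycle inhibitor p21, was at 25.5, 26.1 and 26.4 CPM in the LPS libraries and 191, 203 and 197 CPM in the Hyp libraries. Every Hyp library was above every LPS library, by 7.57-fold (log2 fold change -2.92 ± 0.0392, adjusted p = 8.02e-09). Mdm2, whose protein degrades p53, was at 99.1, 96 and 87.4 CPM in the LPS libraries and 186, 189 and 181 CPM in the Hyp libraries (1.97-fold lower in LPS), and Plk3 and Sesn2 were 3.68-fold and 3.15-fold lower. Sesn1 was the opposite, 3.61-fold higher in LPS. Trp53 itself was higher in LPS (log2 fold change 0.46 ± 0.053, adjusted p = 8.96e-05). The large T antigen of this line binds p53, and its part in these values was not tested.

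Genes of the cell cycle were divided by phase. Of 48 DNA replication and G1/S genes, 32 were lower and 8 higher in LPS (median -0.39), led by the origin licensing gene Cdc6 at 96.9, 95.6 and 98.4 CPM in the LPS libraries and 262, 280.0 and 264 CPM in the Hyp libraries. The groups did not overlap (2.77-fold lower in LPS, log2 fold change -1.47 ± 0.0366, adjusted p = 3.44e-08). The G1/S cyclins Ccne1 and Ccne2 were 2.1-fold and 2.12-fold lower, and the replication helicase gene Cdc45 2.13-fold lower. Mitosis and G2/M genes were balanced, with 21 of 46 higher and 19 lower and a median of 0.01. Ccnb2, a mitotic cyclin, was at 137, 124 and 123 CPM in the LPS libraries and 51.2, 50.4 and 53.5 CPM in the Hyp libraries, 2.47-fold higher in LPS, and the mitotic kinase gene Nek2 was 1.63-fold lower. Replication-dependent histone messages mostly lack the poly(A) tail by which this library kit selects RNA. Of 50 such genes 14 were tested, 12 were lower in LPS and none higher, with a summed level of 14.4 to 16.2 CPM against 47.1 to 50.8 CPM. One of the 14 had no count in a whole group, and without a filter on low counts 19 histone genes were called lower. Of 50 DNA damage and repair genes, 24 were lower in LPS and 9 higher (median -0.13), among them the homologous recombination genes Rad51ap1 (2.4-fold), Rad52 (2.02-fold) and Nbn (1.89-fold), while Xrcc6, the Ku70 end-joining gene, was 1.89-fold higher.

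NRF2 target genes did not move one way. Of 39 tested, 22 were higher in LPS and 11 lower, with a median of 0.21. Hmox1, the haem oxygenase, was at 104, 112 and 106 CPM in the LPS libraries and 334, 323 and 320.0 CPM in the Hyp libraries, clearly apart and 3.04-fold lower in LPS (log2 fold change -1.60 ± 0.0372, adjusted p = 2.77e-08), as was Slc7a11, the cystine importer, at 48.5, 49.8 and 45.5 CPM in the LPS libraries and 115, 119 and 114 CPM in the Hyp libraries (2.42-fold lower). The glutathione transferase Gstm1 was at 109, 101 and 118 CPM in the LPS libraries and 14.5, 14 and 13.2 CPM in the Hyp libraries, 7.86-fold higher in LPS, and Gstm2 was 4.58-fold higher. Nqo1, a quinone reductase, differed little, at 28 ± 0.937 CPM and 22 ± 0.379 CPM (SD, n = 3). Nfe2l2, which encodes NRF2 itself, was at 548, 568 and 583 CPM in the LPS libraries and 227, 220.2 and 234 CPM in the Hyp libraries, 2.49-fold higher in LPS. Of 25 superoxide dismutase, catalase and peroxidase genes, 12 were higher in LPS and 6 lower (median 0.33), including catalase (Cat, 2.28-fold higher) and Prdx2 (2.13-fold higher). Gpx1 was lower in LPS (2.61-fold), with its 3 Hyp values at 169, 174 and 88.9 CPM, where the third library was well below the first and second. In Hyp + M2-Exo its values were also spread, at 92.3, 81.5 and 170 CPM.

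Low-oxygen and glycolysis genes were more often higher than lower in LPS. Of 27 hypoxia-inducible factor targets 16 were higher and 7 lower (median 0.35), and of 18 glycolysis enzymes 14 were higher and 4 lower (median 0.83). Pdk1, the kinase that closes pyruvate entry to the mitochondrion, was at 84.3, 74.5 and 82.7 CPM in the LPS libraries and 14.8, 15.8 and 17.2 CPM in the Hyp libraries (5.05-fold higher in LPS, log2 fold change 2.34 ± 0.0769, adjusted p = 1e-07). Slc16a3, the lactate exporter MCT4, was at 71.3, 66.2 and 70.6 CPM in the LPS libraries and 5.92, 5.37 and 5.91 CPM in the Hyp libraries, with a wide gap between the groups (12.1-fold higher in LPS, log2 fold change 3.59 ± 0.0668, adjusted p = 1.63e-08). Ak4, a mitochondrial adenylate kinase, differed by 11.9-fold, Mxi1, a MYC antagonist, by 4.53-fold and Egln3, an oxygen-dependent prolyl hydroxylase that hypoxia-inducible factors induce, by 11.6-fold at low levels. Aldoc and Pfkl were 7.32-fold and 4.12-fold higher. Gapdh was 2.8-fold higher in LPS, with 24.7% of its 50-base words shared with other genes.

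Sterol genes were mostly higher in LPS. Of 33 genes of sterol synthesis, uptake and efflux, 27 were higher in LPS and 3 lower (median 0.99), 16 of them higher by at least 2-fold. Hmgcs1, which makes HMG-CoA for the mevalonate pathway, was at 755, 743 and 756 CPM in the LPS libraries and 121, 117 and 120.5 CPM in the Hyp libraries. The spread within groups was small against the 6.29-fold gap (log2 fold change 2.65 ± 0.0298, adjusted p = 5.41e-09). Insig1, which holds SREBP in the endoplasmic reticulum when sterols are plentiful, was at 773, 788 and 789 CPM in the LPS libraries and 156, 145 and 162 CPM in the Hyp libraries, and Sqle, squalene epoxidase, at 221, 303 and 316 CPM in the LPS libraries and 60.2, 74.1 and 74.5 CPM in the Hyp libraries. Both were higher in every LPS library (5.08-fold and 4.02-fold). Srebf2, the factor that drives this program, was 2.76-fold higher. The 3 genes lower in LPS were Npc1, Mylip and Nr1h3, of which Nr1h3 encodes a liver X receptor. The summed level was 7996 to 8216 CPM in LPS and 3309 to 3435 CPM in Hyp, and with M2-Exo 6557 to 6658 CPM and 3236 to 3854 CPM. One 10-letter form of the sterol regulatory element was present in 5 of 9986 windows (0.0501%) and in 0 of 24 listed genes, which says only that this form was absent from those windows.

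Fatty acid and phospholipid genes moved less, with 19 of 33 higher in LPS and 5 lower (median 0.31). Scd2, a fatty acid desaturase, was at 2636, 2675 and 2701 CPM in the LPS libraries and 664, 644 and 626 CPM in the Hyp libraries (4.14-fold higher in LPS, log2 fold change 2.05 ± 0.0357, adjusted p = 1.49e-08). Elovl6, an elongase, was 3.45-fold higher and Chka, a choline kinase, 2.17-fold lower. Scd1 did not follow Scd2: it was at 469, 463 and 508 CPM in the LPS libraries and 463, 461 and 440.4 CPM in the Hyp libraries with overlapping groups (log2 fold change 0.08 ± 0.0429, adjusted p = 0.133).

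All 13 mitochondrially encoded respiratory chain genes were higher in LPS, with a median of 0.61, and they took 3.85% to 4.17% of the counts in LPS against 2.62% to 2.86% in Hyp. mt-Co1 was at 12544, 12720.3 and 11988 CPM in the LPS libraries and 7188, 7215 and 6776 CPM in the Hyp libraries. At a 1.5-fold null only 2 of the 13 were called higher, where 18.3% of all genes tested were higher. The 75 nuclear respiratory chain genes were divided, 20 higher and 23 lower (median -0.04), with Uqcrq 2.41-fold lower in LPS and Ndufa6 1.93-fold higher. Of 82 cytoplasmic ribosomal protein genes, 62 were higher in LPS and 5 lower (median 0.44). Against a 1.5-fold null 18 of the 82 were higher and 1 lower, beside 18.3% of all genes tested higher and 15.5% lower. The higher count at that null was therefore near the share of the whole table. Rpl29 and Rps2 differed most, by 3.78-fold and 2.68-fold, and 35.1% and 43% of their 50-base words are shared with other genes, so that the way shared reads were counted bears on both. Lysosome and autophagy genes leaned to hyperoxia, with 28 of 49 lower in LPS and 18 higher (median -0.31). Gla, alpha-galactosidase, was 3.71-fold lower, the proton pump subunit Atp6v1h 3.03-fold lower and the membrane protein Lamp1 1.59-fold lower, whereas Map1lc3a, an autophagosome protein of the LC3 family, was 4.68-fold higher. Metallothionein and zinc transporter genes were lower in LPS in 9 of 15 and higher in 2 (median -0.30). Slc39a10, a zinc importer, was 4.71-fold higher in LPS and the exporters Slc30a1, Slc30a4 and Slc30a7 were 2.15-fold, 2.19-fold and 2.64-fold lower.

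The study concerns ferroptosis, an iron-dependent death by lipid peroxidation, and its lists were mixed. Of 27 ferroptosis suppressor and glutathione genes, 10 were higher in LPS and 9 lower (median 0.08), and of 29 driver and iron genes 15 were higher and 6 lower (median 0.17). The last count rose to 10 with library size alone. Gpx4, the peroxidase that removes lipid peroxides, was at 70.5, 74.1 and 68.8 CPM in the LPS libraries and 68, 68.2 and 64.4 CPM in the Hyp libraries. The groups did not overlap but the difference did not pass the test (log2 fold change 0.09 ± 0.0473, adjusted p = 0.122), and its sign turned with library size alone. Its counts are also uncertain, as 34.7% of the 50-base words of Gpx4 are shared with other genes. Gch1, which makes the antioxidant tetrahydrobiopterin, was at 12.1, 11.1 and 10.05 CPM in the LPS libraries and 61.6, 62.6 and 59.7 CPM in the Hyp libraries (5.53-fold lower in LPS, log2 fold change -2.47 ± 0.0733, adjusted p = 6.7e-08). On the driver side Aloxe3, a lipoxygenase, was 7.02-fold lower in LPS, and Cybb, the NOX2 oxidase of phagocytes, was at 164, 166 and 143 CPM in the LPS libraries and 9.6, 8.63 and 7.6 CPM in the Hyp libraries, 18.3-fold higher. The myeloid marker sum moved in the same direction as Cybb, and its part was not tested.

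**Figure D4:**
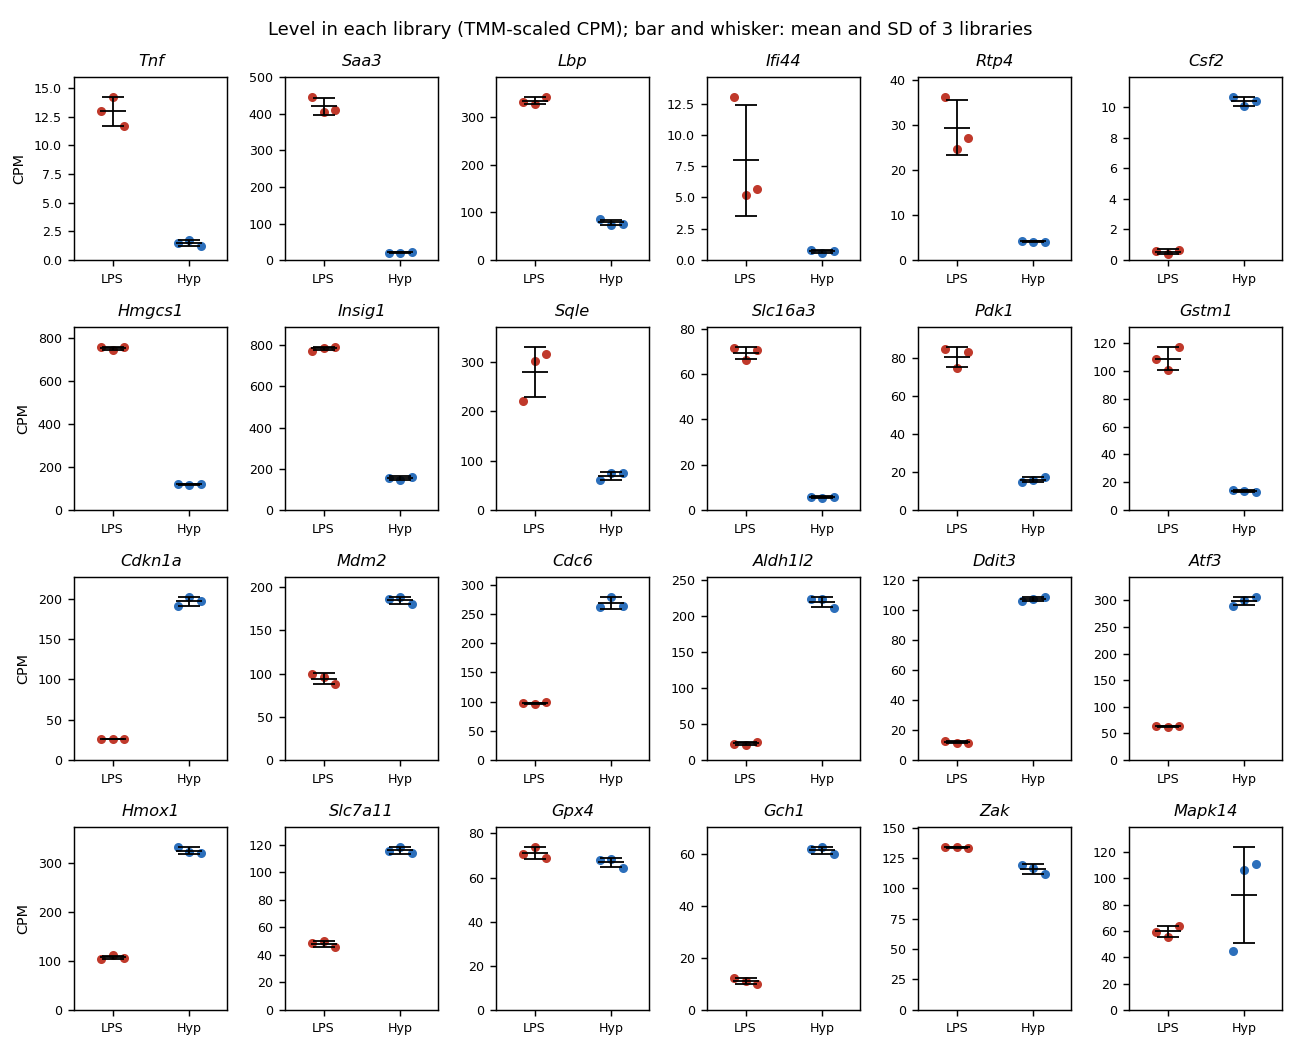
Level (TMM-scaled CPM, linear axis from 0) of 24 genes in each of the 3 LPS (red) and 3 Hyp (blue) libraries, with the mean and SD of 3 libraries as bar and whisker. From top to bottom the rows hold inflammatory and interferon genes, sterol, glycolysis and glutathione transferase genes, p53, replication and stress response genes, and ferroptosis and p38 genes, and the groups overlap only for Mapk14.

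Genes that the study measured by PCR or blot were read as a list that it had chosen itself, so their count is not independent evidence of a direction. Of 10 tested, 5 were higher in LPS, among them Sftpc, Bcl2, Srebf1 and Zak, and 1 lower (Bax). Zak, which encodes the ribosome-associated kinase ZAK, was at 134, 134 and 133 CPM in the LPS libraries and 119, 117 and 112 CPM in the Hyp libraries, a small difference larger than the spread (1.15-fold higher in LPS, log2 fold change 0.21 ± 0.035, adjusted p = 0.00082). Mapk14, the p38 alpha kinase, was at 59.5, 55.4 and 63.9 CPM in the LPS libraries and 45, 106 and 111 CPM in the Hyp libraries. The first Hyp library was below all LPS libraries and the others above them (log2 fold change -0.55 ± 0.296, adjusted p = 0.123), and without that first library Mapk14 was called lower in LPS (log2 fold change -0.87). Its level also varied within groups with M2-Exo, at 146, 86.7 and 59.4 CPM in LPS + M2-Exo and 43.8, 39.7 and 114 CPM in Hyp + M2-Exo. The difference there had the opposite sign and was not called (log2 fold change 0.57, adjusted p = 0.278). In the p38 cascade 10 of 21 genes were higher and 7 lower (median 0.02). Bax, a pore-forming death protein, was at 63.1, 71.4 and 66.6 CPM in the LPS libraries and 88, 91 and 89.3 CPM in the Hyp libraries (log2 fold change -0.41 ± 0.0517, adjusted p = 0.000137), and its antagonist Bcl2 at 23.6, 25.5 and 22.1 CPM in the LPS libraries and 13.3, 12.5 and 13.5 CPM in the Hyp libraries (log2 fold change 0.85 ± 0.0755, adjusted p = 1.76e-05). Srebf1, the SREBP1 gene, was 1.7-fold higher in LPS, and Aqp5, the type I water channel, was at 68.3, 65.4 and 96.9 CPM in the LPS libraries and 75, 68.8 and 113 CPM in the Hyp libraries with overlapping groups (log2 fold change -0.16 ± 0.212, adjusted p = 0.52). Of 29 BCL2 family and caspase genes, 14 were higher and 7 lower (median 0.18). Bmf, a BH3-only gene, was 9.66-fold higher in LPS, and Hrk, another BH3-only gene, was at 0.274, 0.377 and 0.434 CPM in LPS and 8.07, 9.24 and 6.84 CPM in Hyp, 21.9-fold lower. Casp1 and Bcl2a1b, genes prominent in leukocytes, were 6.2-fold and 7.3-fold higher; 79.2% of the 50-base words of Bcl2a1b are shared with other genes, its close paralogues included.

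Barrier and matrix genes were higher in LPS more often than lower. Of 21 tight and adherens junction genes, 15 were higher and 5 lower (median 0.47), with Cldn3, Tjp3 and Pvrl3 2.86-fold, 2.47-fold and 2.35-fold higher. The count of 5 lower was not stable, at 2 with DESeq2 and 2 without the second LPS library. Of 43 matrix and remodelling genes, 28 were higher and 11 lower (median 0.44). Col6a1, a chain of microfibrillar collagen VI, was at 47.8, 51.6 and 50.7 CPM in the LPS libraries and 1.53, 1.5 and 2.09 CPM in the Hyp libraries, 29.1-fold higher in LPS (log2 fold change 4.86 ± 0.113, adjusted p = 2.77e-08), with its partner Col6a2 24.3-fold higher and Col18a1 13.9-fold higher. Mmp13, a collagenase, was the reverse, at 0.494, 0.216 and 0.543 CPM in LPS and 8.78, 9.46 and 10.3 CPM in Hyp. Of the fibroblast markers, Pdgfra was at 22.3, 21.2 and 23.2 CPM in the LPS libraries and 0.911, 0.924 and 1.21 CPM in the Hyp libraries and Dcn at 789.6, 779.9 and 806 CPM in the LPS libraries and 336, 319 and 346 CPM in the Hyp libraries, both higher in every LPS library (21.7-fold and 2.37-fold), while Col1a2 and Col3a1 were low (1.7, 1.4 and 1.47 CPM of Col3a1 in LPS) and did not pass the test, and Lum and Acta2 were under 1 CPM. The 5 fibroblast markers tested summed to 814 to 842 CPM in LPS and 330 to 358 CPM in Hyp. Most of both sums was Dcn, so they describe that gene more than the list, and Col1a1 was 1.36-fold higher in LPS. The part of the fibroblast markers in the matrix results was not tested. Endothelial markers were low: Pecam1, Kdr and Vwf were lower in LPS, Tek was higher and Cdh5 was at or near 0. Clock genes, 8 of 20 higher and 10 lower, included the repressor Nr1d1 (3.88-fold lower in LPS) and Per3 and Dbp (3.7-fold and 3.62-fold higher).

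The largest differences among genes with at least 100 counts on average in the higher group were read gene by gene, first on the LPS side. Fmod (ENSMUSG00000041559, chr1:134037254-134048277 on GRCm38), which encodes the collagen-binding proteoglycan fibromodulin, was at 75.2, 72.8 and 71 CPM in the LPS libraries and 1.66, 1.28 and 0.965 CPM in the Hyp libraries, 56-fold higher in LPS (log2 fold change 5.81 ± 0.133, adjusted p = 2.74e-08). Prelp, of the same protein family and on the same chromosome, was at 52.1, 56.6 and 55.8 CPM in the LPS libraries and 1.32, 1.63 and 1.69 CPM in the Hyp libraries (35.3-fold). Hp, haptoglobin, was at 39.1, 40.1 and 34 CPM in the LPS libraries and 1.03, 0.792 and 1.45 CPM in the Hyp libraries (34.1-fold). Irg1 (ENSMUSG00000022126, chr14:103046977-103056573), which makes itaconate in activated macrophages, was at 157, 151 and 140.3 CPM in the LPS libraries and 5.63, 6.25 and 5.19 CPM in the Hyp libraries (26.3-fold, log2 fold change 4.72 ± 0.0791, adjusted p = 1.38e-08), and Cx3cr1, the fractalkine receptor, and Ighm, the immunoglobulin heavy chain, were 24-fold and 23.3-fold higher. The other rises were Cxcl2 (46.4-fold), Gpr20 (36-fold), Megf6 (31.4-fold), Lgi3 (28-fold), Col6a1 and Col6a2. The leukocyte genes among them moved with the myeloid marker sum, and its part was not tested. On the hyperoxia side, Nppb (ENSMUSG00000029019, chr4:147985788-147987205), the brain natriuretic peptide gene, was at 0.329, 0.701 and 0.38 CPM in the LPS libraries and 11.5, 11.1 and 11.7 CPM in the Hyp libraries (24.1-fold lower in LPS, log2 fold change -4.59 ± 0.191, adjusted p = 3.02e-07). Atp13a4, a P5-type transport ATPase, had counts of 0, 0 and 1 in LPS and 199, 204 and 228 in Hyp, a ratio of summed depth-scaled counts of 517 with a 95% counting interval of 92.4 to 20438. Trim69 was at 0.11, 0.0539 and 0.0543 CPM in the LPS libraries and 5.88, 7.44 and 6.36 CPM in the Hyp libraries, and Efcab8 had nearly the same levels, at 0.11, 0.108 and 0.109 CPM in the LPS libraries and 5.88, 7.13 and 5.87 CPM in the Hyp libraries. Serpinb9c and Serpinb9d, 18% and 30.8% of whose 50-base words are shared with other genes, the metabolic enzymes Ces2g and Cyp2c55, Abca6, Mcpt1, the ERK inhibitor Spry4 and Xntrpc, a transcript joined to Trpc2 and Xndc1, made up the other falls.

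The 3 most abundant called genes in each direction were also read. mt-Co1, mt-Cytb and Eef1a1, the translation elongation factor, had the highest mean CPM of genes higher in LPS, and Clu and Lamp1 were among the most abundant of the genes lower. Clu, the secreted chaperone clusterin, was at 1289.7, 1177 and 1259 CPM in the LPS libraries and 1757, 1939 and 2051 CPM in the Hyp libraries (log2 fold change -0.62 ± 0.0619, adjusted p = 3.48e-05). For Eef1a1, 1.85-fold higher in LPS, 39.4% of the 50-base words are shared with other genes.

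The same contrast was then read in the 6 libraries that also received M2-Exo. Of 13660 genes tested there, 10062 were called (73.7%), 4991 higher (36.5%) and 5071 lower (37.1%). Across the 13535 genes tested in both, the 2 sets of log2 fold changes correlated at r = 0.952, which is across genes and not across independent replicates. Of 10306 genes called without M2-Exo and tested with it, 10161 had the same direction (98.6%), and 9182 were also called in that direction, which is 89.1% of that list and 91.8% of the 9998 called with M2-Exo. Among the 3229 genes tested in both and not called without M2-Exo, 2378 had the same direction (73.6%). At least 2-fold differences held their direction in 3152 of 3157 genes. Only 3 genes were called in opposite directions: Aacs (0.16 without and -0.22 with M2-Exo), Nek7 (-0.19 and 1.16) and Ythdf3 (-0.76 and 0.43). Nek7 was at 124, 44.2 and 129 CPM in LPS + M2-Exo and 43.6, 44.2 and 45.8 CPM in Hyp + M2-Exo. The second LPS + M2-Exo library thus showed no rise. Ythdf3 was at 109.5, 114 and 184 CPM in LPS, where the third library stood above the first and second, and 231, 231 and 225 CPM in Hyp.

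**Figure D5:**
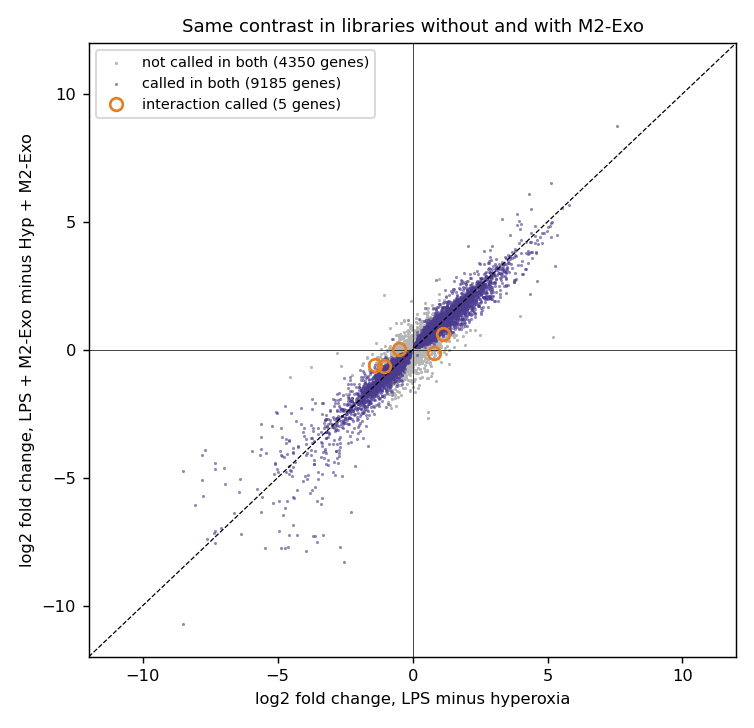
Log2 fold change of LPS against hyperoxia in libraries without M2-Exo (x axis) and with M2-Exo (y axis) for the 13535 genes tested in both, with 9185 genes called in both in violet, the others in grey, and the 5 genes with a called interaction ringed in orange. The points follow the dashed line of equal differences (r = 0.952 across genes), and the ringed genes lie nearer 0 on the y axis than on the x axis.

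The difference between the 2 contrasts was tested with an interaction term over all 12 libraries. It was called for 5 of 14187 genes (0.0352%), and 1387 (9.78%) had an unadjusted p under 0.05. Aacs, Nek7 and Ythdf3 were not among the 5. By DESeq2 70 genes were called. For the interferon-stimulated list the median was 1.36 without (37 genes tested) and 0.85 with M2-Exo (35 genes tested), and for the sterol list 0.99 and 0.62. The interferon-stimulated median without M2-Exo was lower when the first LPS library was left out, as given above. No interferon-stimulated gene had a called interaction, and of the sterol genes Acat2 alone did; the difference between the list medians was not tested.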

How the data were processed

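Poly(A) RNA of MLE-12 cells was sequenced on an Illumina NovaSeq instrument in 12 libraries, 4 groups of 3, and the 6 libraries without M2-Exo were compared. Per the labels and the methods, the authors filtered reads with Seqtk, aligned them to GRCm38 with HISAT2 2.0.4 and used StringTie 1.3.0 and edgeR. The sources differ on the RNA extraction (Trizol or RNeasy), and the gene counting program is not given in the sources used here. The deposited table gives raw counts for 34745 genes in each library, and, beside them, FPKM values made by the authors from those counts. The TruSeq kit does not mark strand, and 23.3% of the genes share exonic bases with another gene of the table. How reads shared between genes were counted is not given, so for named genes the share of 50-base words of the transcripts (GENCODE M21) that also occur in another gene was computed.

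The counts were tested as deposited with the quasi-likelihood F test of edgeR 4.0.16 (R 4.3.3) after filterByExpr and TMM scaling, LPS minus Hyp, without covariates, with Benjamini-Hochberg adjustment over all genes tested and a threshold of 0.05. Fold changes are those of this fit, with a standard error derived from the fold change and its F statistic, and levels are TMM-scaled CPM. The common biological coefficient of variation was 8.78%, with 4 residual degrees of freedom. The test recovered 58.5%, 83% and 99% of 200 genes simulated at log2 changes of 0.5, 1 and 2 for this comparison (13624, 13601 and 13625 genes), with 12 to 18 false calls. Only those 200 genes were changed in the simulation, whereas 75.8% of the genes tested were called in the data. Recovery and false calls may therefore differ in the data. The depth of 18700207 to 24074616 counts set the precision of low genes, and intervals cover counting error only. The contrast with M2-Exo and the interaction used the same test.

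The members, gene lists and alternatives were chosen with earlier results of these data known. The named genes were, by rule, up to 12 rises and 12 falls with the largest change (called, at least 100 mean counts in the higher group, groups apart, no predicted or clone names), up to 4 called members a list with the largest change, the genes the study measured, the 3 most abundant called genes each way, up to 5 interaction genes and the cell type markers. Chosen after their values were seen were Aacs, Atf4, Chac1, Egln3, Gbp3, Il1b, Il6, Ly96, Mdm2, Nek7, Nqo1, Ptgs2, Rsad2, Slc7a11, Srebf2, Tlr4, Tnf, Trp53 and Ythdf3, other list members named without a value, the Y-linked list and the motifs. Some genes that the rule named are not reported here. Alternatives were other scalings, filters, DESeq2 1.42.0, limma 3.58.1 on log2(FPKM + 1), a gene length offset, thinning, a fit of all 12 libraries, a replicate block, a 1.5-fold null and leaving out each library. The 3 same-numbered LPS and Hyp libraries did not deviate together (r of 0.0059 to 0.029), so numbers were not taken as pairs. Promoters are RefSeq sequences on GRCm38.p6.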

Additional observations from a re-analysis of the deposited data

Results flagged for a closer look

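In 5 genes the LPS against hyperoxia difference itself differed between libraries with and without M2-Exo by the interaction term of the edgeR quasi-likelihood fit over all 12 libraries, at an adjusted p under 0.05, out of 14187 genes tested. Slc30a7, a zinc exporter of the secretory pathway, was at 43.4, 41.5 and 43.7 CPM in LPS and 116, 109.7 and 113 CPM in Hyp without M2-Exo, and at 77.1, 73.8 and 74.2 CPM and 112, 116 and 116 CPM with it, an interaction of 0.792 ± 0.0569 on the log2 scale (adjusted p = 0.000138). For Pigb, an enzyme of the glycosylphosphatidylinositol anchor whose exons overlap those of Ccpg1, the levels were 26.5, 27.7 and 27 CPM and 15.6, 15.4 and 15.7 CPM without and 13.9, 15.5 and 14.4 CPM and 17, 15.1 and 16.1 CPM with M2-Exo, an interaction of -0.937 ± 0.093 (adjusted p = 0.00246). Acat2, the cytosolic acetoacetyl-CoA thiolase that feeds the mevalonate pathway, was at 221, 208 and 223 CPM and 102, 100.1 and 96.5 CPM without and 169.8, 159 and 165 CPM and 104, 109.9 and 112 CPM with M2-Exo, an interaction of -0.524 ± 0.0591 (adjusted p = 0.00639), and 39.1% of its 50-base words are shared with other genes. Usp36, a nucleolar deubiquitinase, was at 64.2, 59.5 and 64.8 CPM and 129, 131 and 132 CPM without and 70.6, 68.6 and 70.2 CPM and 107, 109.6 and 107 CPM with M2-Exo, an interaction of 0.426 ± 0.0557 (adjusted p = 0.0221). Ube2s, a ubiquitin-conjugating enzyme of mitotic exit whose exons overlap those of Rpl28, was at 45.9, 45.1 and 44.3 CPM and 63.6, 60.2 and 67.3 CPM without and 58.1, 61.1 and 59.4 CPM and 59, 59.9 and 57.1 CPM with M2-Exo, an interaction of 0.518 ± 0.07 (adjusted p = 0.0244). The libraries with and without M2-Exo were scaled separately for these levels. In each of the 5 genes the difference was smaller in size with M2-Exo. The number of such genes was not stable: leaving out 1 library gave 4 to 34, and the 34 came without the first Hyp + M2-Exo library.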

How the results depend on the processing

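The count of 10465 called genes, of 13805 tested, stayed between 8738 and 10913 under the scaling, filter, tool, offset, block and thinning alternatives, and was 4666 against a 1.5-fold null. The number of genes tested also moved. It was 11086 for the 8738 calls with limma on log2(FPKM + 1) and 20645 for the 10913 calls without a filter on low counts, a smaller share called. Leaving out 1 library gave 10046 to 10301 called genes, 3326 to 3511 of at least 2-fold, 1104 to 1209 past the study's thresholds, 9603 to 9913 with M2-Exo and 4 to 34 interactions; beside the 34 without the first Hyp + M2-Exo library there were 10 without the second LPS + M2-Exo library, 9 without the third LPS or the second Hyp library and 8 without the first LPS library. Genes of at least 2-fold numbered 1292 with limma on log2(FPKM + 1). Past the study's thresholds were 1836 without a filter on low counts, 500 with at least 10 counts in every library and 111 with limma on FPKM. Interactions numbered 13 without a filter and 70 with DESeq2. No call was made on shared replicate numbers: a replicate block gave 10416 called genes and 2 interactions, and same-numbered libraries correlated at 0.020, 0.0059 and 0.029. Signs turned for genes that were not called: Aqp5 to 0.0888 without the third Hyp library (-0.353 at the other end of the leave-one-out range), Col1a2 to -0.051 with library size alone, -0.0738 with a length offset, -0.203 without the second LPS library and -0.0865 without the first Hyp library (up to 0.233 without the first LPS library), Gpx4 to -0.00103 with library size and -0.00129 with limma on FPKM, Scd1 to -0.0125 and -0.0127 with the same settings, and Tlr4 to -0.201 without the second Hyp library (up to 0.711 without the first). The cause of the turned signs was not tested. With limma on FPKM, which kept only genes with a mean FPKM of at least 1, no Y-linked gene was tested, so that list has no median there.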

Other observations

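Gene classes outside the lists differed between LPS and hyperoxia. Of 214 long intergenic non-coding RNA genes tested, 93 were lower in LPS and 48 higher, with a median log2 fold change of -0.39, and of 204 antisense genes 86 were lower and 43 higher, with a median of -0.50. Protein-coding genes were balanced, with 4854 of 12611 higher, 4867 lower and a median of -0.01. Sense intronic genes went the other way, with 19 of 34 higher in LPS, 3 lower and a median of 0.87. The kit did not mark strand, so reads of antisense and intronic genes cannot be told apart from those of the genes they overlap. By chromosome, the median was between -0.14 and 0.08 on the 19 autosomes, 0.14 on the X chromosome (461 genes), 0.61 for the 13 mitochondrial genes and 2.20 for the 5 tested genes of the Y chromosome.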
